A study of Homo sapiens with 18 samples.

Results

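Gene expression was compared between cells exposed to aminated graphene oxide (GONH2) and untreated control cells, on arrays labelled as Jurkat, a human line from a T-cell leukemia. The comparison takes the arrays whose titles name T cells with GONH2, replicates 1 to 3, and T cells without treatment, replicates 1 to 3, which are 6 of the 18 arrays of the series, and it covers every transcript that passed a detection filter. The other 12 arrays hold Jurkat cells exposed to graphene oxide (GO) and, from the monocytic leukemia line THP1, cells labelled GONH2, GO or control. GONH2 cells received 50 µg/ml for 24 h and control cells 0 µg/ml, and each group has 3 arrays named as biological replicates. GO is a thin sheet of oxidized carbon, and GONH2 is made from it by attaching amino-terminated chains, so the pair was made to ask whether the surface chemistry changes what the sheet does to immune cells. By the study's characterization the GONH2 sheets were also thicker than those of GO and less evenly suspended. By its label each group is 1 established line in culture, and the values describe those cultures only.

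Immune cells answer foreign material mostly through a few shared circuits. Type I interferon raises genes that block viral RNA, many of which carry a short promoter element, the ISRE. Chemokines such as those of the CCL3, CCL4 and CCL5 genes are secreted proteins that draw in other immune cells. Growth signals through MAP kinases raise immediate early genes such as EGR1 within minutes, and these same signals raise phosphatases that switch them off again.

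What the arrays were made from rests on their labels, and the markers of the arrays do not fully match the line named. Of 27 T-cell markers on the array, 8 were detected on all 3 GONH2 arrays and 8 on all 3 control arrays, while 17 were detected on no GONH2 array and 14 on no control array. CD3D, a signalling chain of that receptor, passed detection on all arrays of both groups, whereas CD3E and CD3G, its partner chains, were detected on none. Of 27 myeloid markers, 20 were detected on all 3 GONH2 arrays and 21 on all 3 control arrays, close to the 23 on all 3 control arrays labelled THP1. ELANE, the gene of neutrophil elastase, averaged a log2 intensity of 13.5 on GONH2 arrays and 13.6 on control arrays. Jurkat and THP1 therefore stand here for the labels of the arrays. The group means that the study gives for T cells with GONH2 equal those of no labelled group in the deposited table, so it is not settled that these are the arrays it analysed. The summed normalized intensity of the myeloid list ran from 50510 to 52790 on GONH2 arrays and from 55250 to 58870 on control arrays. That of the T-cell list ran from 1531 to 1590 on GONH2 arrays and from 1605 to 1768 on control arrays. Both sums were thus lower on every GONH2 array than on any control array, and their part in the differences below was not tested. As the RNA is from bulk cultures, fewer cells of a kind and less RNA per cell cannot be told apart. Between 16180 and 17781 probes were detected per GONH2 array and between 16866 and 17602 per control array. Across all tested probes, pairs of arrays correlated at 0.9904 to 0.9939 within GONH2, at 0.9928 to 0.9936 within control and at 0.9859 to 0.9914 between the groups.

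A small set of transcripts passed the thresholds for a change after GONH2. Of 19455 transcripts tested, 158 differed from control at an unadjusted p under 0.001 and a Benjamini-Hochberg adjusted p under 0.05 (0.812%), here called changed, with 102 higher (0.524%) and 56 lower (0.288%) after GONH2. At an unadjusted p under 0.05 there were 3620 (18.6%), and a missed threshold does not show that a transcript kept its level. In all 158, the 3 GONH2 arrays lay on one side of the 3 control arrays. Over all genes, 12.1% lay above all control arrays and 14.9% below. The median log2 fold change was 0.77 among the transcripts that rose and -0.74 among those that fell, and 13 rises and 7 falls reached 2-fold. The set stood at ordinary levels, with a median log2 intensity of 7.45 for the transcripts that rose, 8.63 for those that fell and 7.29 for all tested. Counted by gene, with 1 probe each, 85 of 11130 genes changed (0.764%), 44 of them higher (0.395%) and 41 lower (0.368%). The adjusted p of the 158 had a median of 0.0388, close to the threshold. When GONH2 array 1, 2 or 3 or control array 2 or 3 was left out, 2 transcripts were still called. Without control array 1, 4 were. All 158 kept their sign in each of these fits, which was fixed in advance because their groups did not overlap. The count also moved with the processing, between 24 and 928 over the settings that kept all 6 arrays and set no replicate block, and the plot of calls by setting gives each. The plot of every tested transcript against its level shows the called transcripts at the rim of the cloud on both sides, over most of the range of levels.

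**Figure D1:**
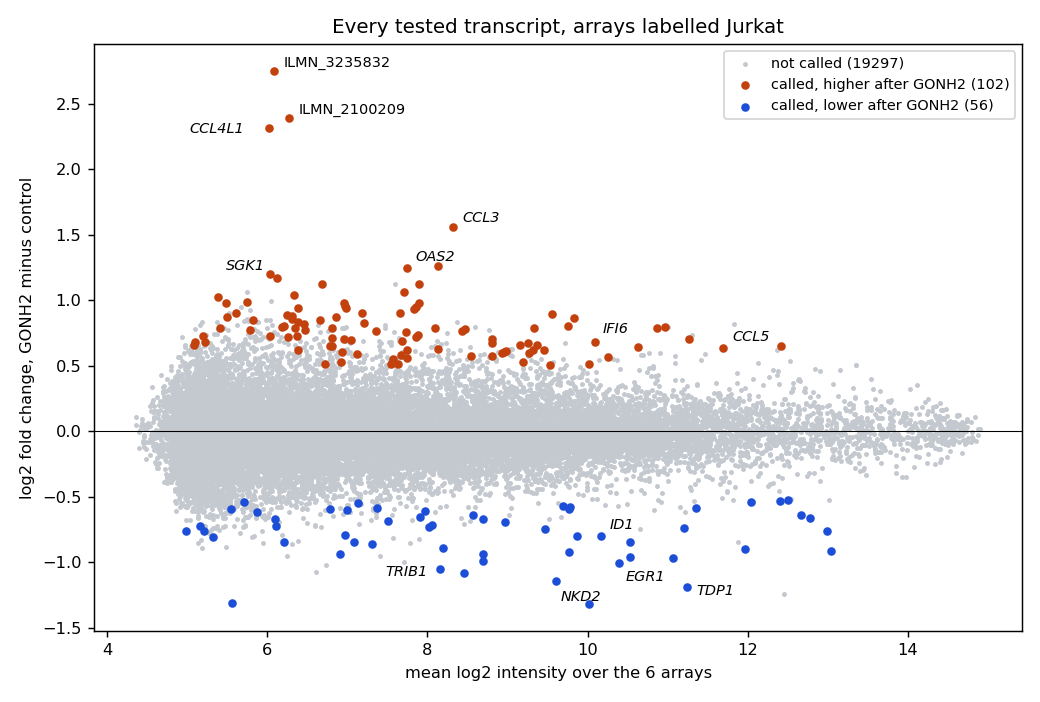
Log2 fold change (GONH2 minus control, arrays labelled Jurkat) of each of 19455 transcripts against its mean log2 intensity over the 6 arrays. Orange points are the 102 transcripts called higher, blue points the 56 called lower and grey points the rest, and 2 probes without a gene symbol and CCL4L1 stand apart at the top, above 2.3.

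**Figure D2:**
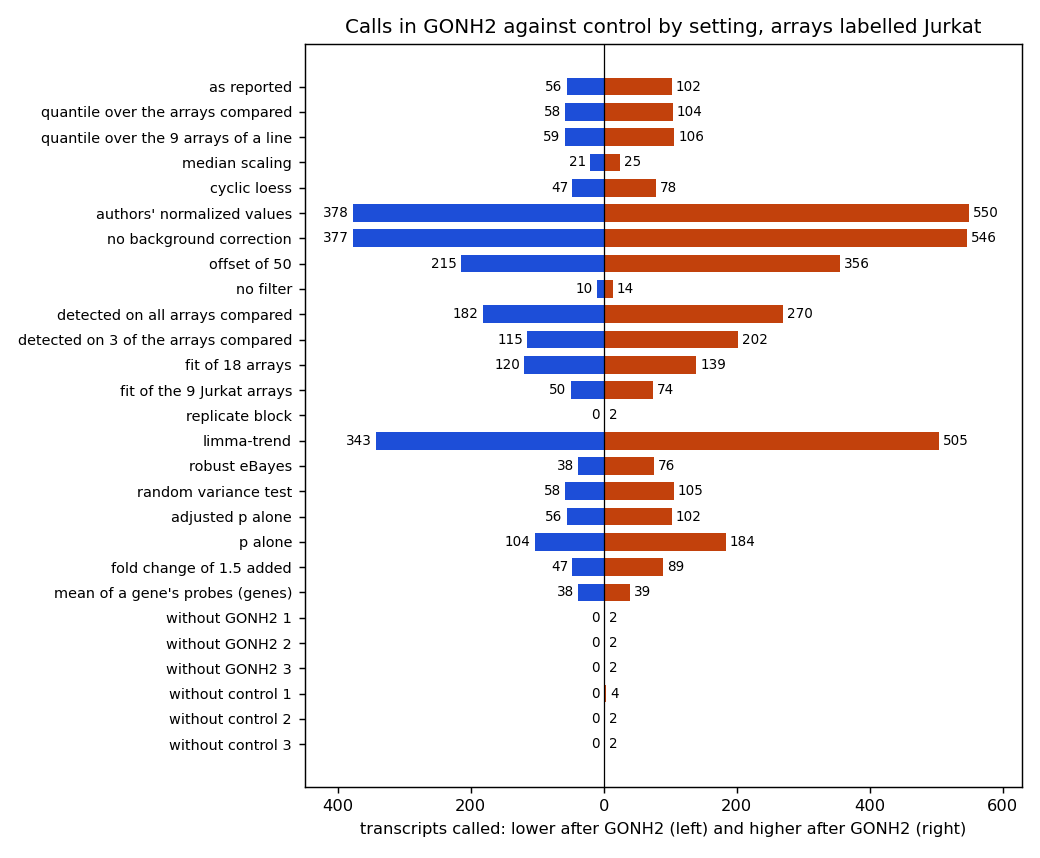
Number of transcripts called lower (blue, left) and higher (orange, right) after GONH2 on arrays labelled Jurkat under each processing setting, with genes instead of transcripts for the mean of a gene's probes. The bars reach 550 higher and 378 lower with the authors' normalized values and shrink to at most 4 higher and 0 lower without 1 array or with the replicate number as a block.

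The pair of transcripts still called without any 1 array carries no gene symbol in the annotation used here. Probe ILMN_3235832 had a log2 intensity of 7.43, 7.53 and 7.44 on the GONH2 arrays, against 4.73, 4.75 and 4.65 on the control arrays. It was detected on all GONH2 arrays and no control array, so that it rose at least 4.53-fold (adjusted p = 5.0e-05). Probe ILMN_2100209 had 7.26, 7.47 and 7.68 on GONH2 arrays, against 4.86, 5.26 and 5.12 on control arrays, a rise of at least 4.56-fold (adjusted p = 0.0037). In both, the gap between the groups was wider than the spread within either. Both were also higher than on GO arrays, where they stood at 4.47 to 5.03 (detected on none) and 4.79 to 5.44 (detected on 1), the first by at least 4.39-fold. Of the 158 transcripts, 38 had no symbol, 26 of those that rose and 12 of those that fell. Among the falls, ILMN_3247390 had 4.72, 4.95 and 5.04 on GONH2 arrays, where it was not detected, against 6.17, 6.38 and 6.08 on control arrays.

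Chemokine genes were among the named genes with the largest rises. Of 17 tested chemokine and cytokine genes that the study displays, 6 rose and 0 fell (0.395% of all genes rose), and 15 had a positive log2 fold change, with a median of 0.39 against -0.02 over all genes. The study chose that list on these samples, so it is not independent evidence of its direction. CCL4L1, which encodes a variant of the chemokine MIP-1 beta, had log2 intensities of 7.30, 7.24 and 7.00 on GONH2 arrays, against 5.33, 4.74 and 4.51 on control arrays. Each GONH2 value lay well above the highest control, and the probe was detected on all GONH2 arrays and on 1 control array. Its log2 fold change was 2.32 (SE 0.21, n = 3 per group, adjusted p = 0.0184). CCL3, the gene of MIP-1 alpha, had 9.20, 8.99 and 9.11 on GONH2 arrays, against 7.29, 7.66 and 7.66 on control arrays. It was higher on every GONH2 array, and its log2 fold change of 1.56 (SE 0.13, adjusted p = 0.0161) corresponds to 2.95-fold. CCL3L1 and CCL3L3, near-identical copies of CCL3 whose probes may read each other's transcripts, rose by 1.26 (SE 0.11) and 0.86 (SE 0.13). All 3 probes of CCL3L1 moved the same way, and the call was met by 2 of them. CCL4L1 and CCL3 were the named genes still called without control array 1.

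CCL5, the gene of the chemokine RANTES, had 11.94, 12.04 and 12.05 on GONH2 arrays, against 11.33, 11.44 and 11.35 on control arrays. The 6 values formed a pair of tight groups, 0.64 apart (SE 0.09, adjusted p = 0.0343). A second CCL5 probe had 0.32 and was not called (adjusted p = 0.221). IL1B, the gene of the fever cytokine interleukin 1 beta, had 7.73, 7.61 and 7.58 on GONH2 arrays, against 6.61, 6.70 and 6.89 on control arrays (0.91, SE 0.10, adjusted p = 0.0284). The remaining 11 genes were not called. CCL2, which draws monocytes, had a log2 fold change of 0.61 with its arrays apart (adjusted p = 0.0594). CXCL8, which draws neutrophils, had 0.39 with overlapping arrays. TNF, the gene of the cytokine TNF alpha, had a negative log2 fold change of -0.73 (adjusted p = 0.250), the lowest of the list. Beyond CCL3, which stands on that list as well, 0 of the 23 tested genes of NF-kB subunits, inhibitors and targets were called, with a median of 0.04.

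**Figure D3:**
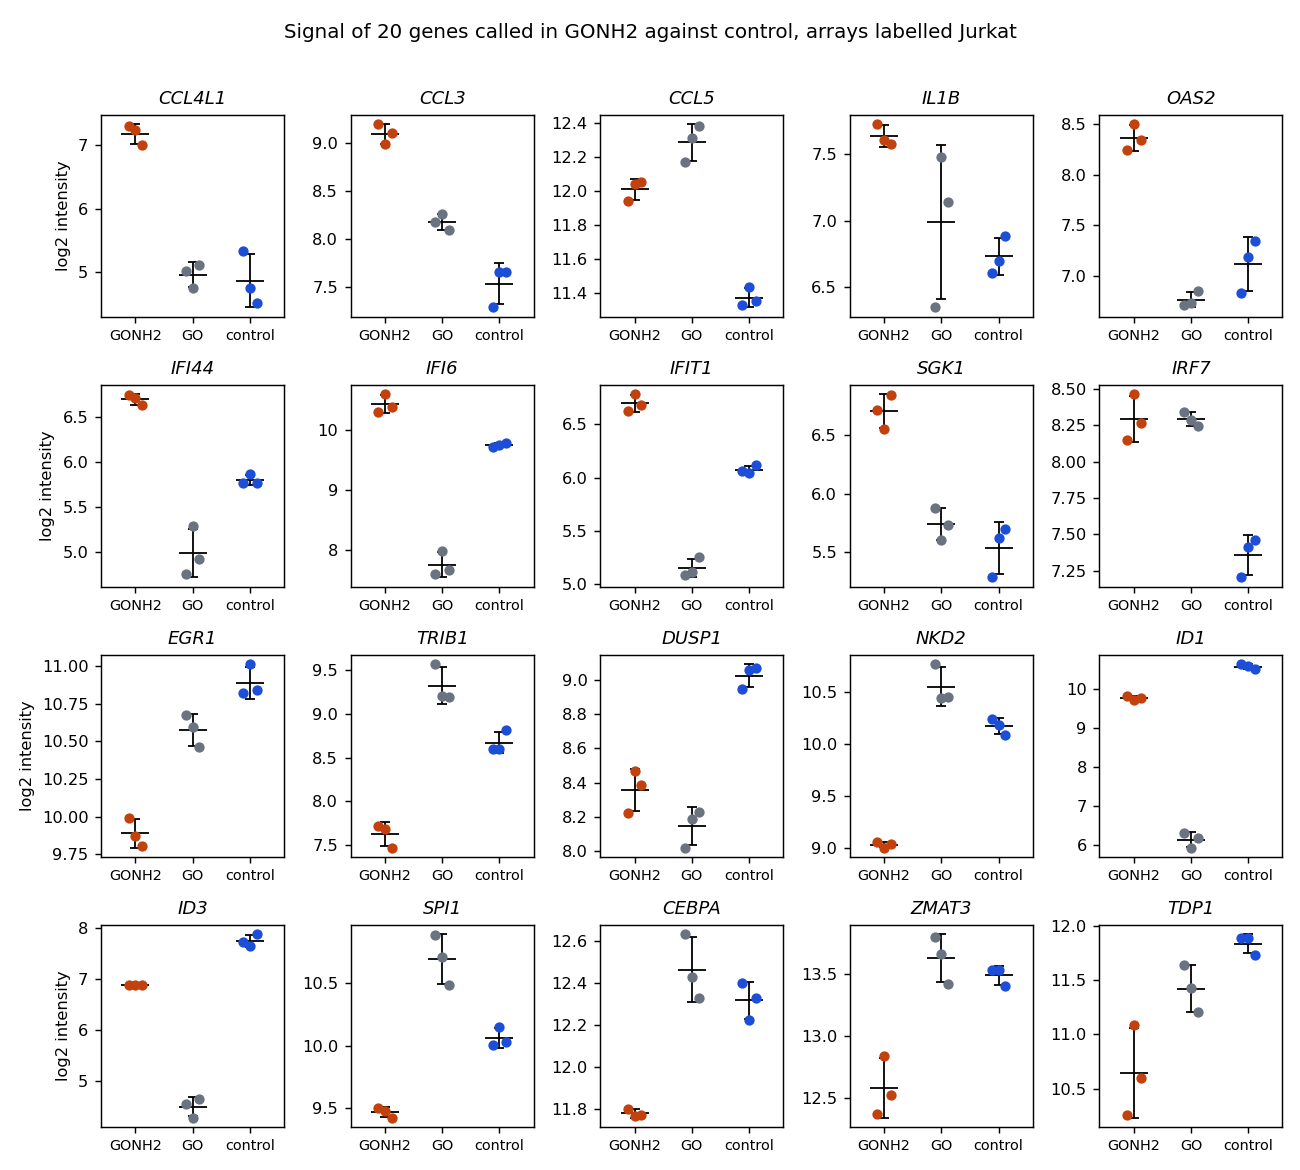
Log2 intensity of 20 genes called in GONH2 against control, by array, on arrays labelled Jurkat. Points are arrays (GONH2, GO, control from left to right), horizontal bars the mean and vertical bars the SD of 3 arrays, and the axes do not start at 0. GONH2 and control do not overlap in any panel. GO lies beside GONH2 for IRF7 and DUSP1 and on the far side of control for IFI44, IFI6, IFIT1, TRIB1, NKD2 and SPI1.

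Most genes induced by type I interferon had a positive log2 fold change, and a minority were called. The list was chosen with earlier results of these data known. Of 51 tested members of the interferon-stimulated list, 7 were called higher and 0 lower (0.395% and 0.368% of all genes). At an unadjusted p under 0.05, 24 were higher (8.1% of all genes) and 3 lower (10.1%). Above all control arrays lay 26 (12.1% of all genes) and below them 4 (14.9%), and 40 had a positive log2 fold change. The median was 0.24. OAS2, which makes the messenger that activates RNase L on viral RNA, had log2 intensities of 8.25, 8.50 and 8.35 on GONH2 arrays, against 6.82, 7.19 and 7.35 on control arrays (log2 fold change 1.25, SE 0.15, adjusted p = 0.0313). Its relative OAS3 had 7.34, 7.61 and 7.38 on GONH2 arrays, against 6.31, 6.44 and 6.65 on control arrays (0.98, SE 0.12, adjusted p = 0.0341). In both genes the lowest GONH2 array stood above the highest control. On its other probe OAS2 had 0.56 and was not called (adjusted p = 0.129). OAS1, the first member of that family, was not called by the probe that stands for it (0.50, adjusted p = 0.105), while another, ILMN_2410826, was detected on no control array and rose at least 1.61-fold (adjusted p = 0.0233).

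IFI44, an interferon-induced protein gene, had 6.74, 6.70 and 6.63 on GONH2 arrays, against 5.77, 5.87 and 5.76 on control arrays (0.89, SE 0.09, adjusted p = 0.0227). IFI6, whose protein holds back cell death and viral replication, had 10.30, 10.60 and 10.40 on GONH2 arrays, against 9.72, 9.75 and 9.78 on control arrays (0.68, SE 0.10, adjusted p = 0.0433). IFIT1, whose protein binds viral RNA without the host's cap, had 6.62, 6.78 and 6.68 on GONH2 arrays, against 6.06, 6.04 and 6.11 on control arrays (0.62, SE 0.09, adjusted p = 0.0381). These 3 genes had little spread among control arrays, and each GONH2 array lay above them. A second probe of IFI6 had 0.37 and was not called (adjusted p = 0.163). DTX3L, a ubiquitin ligase gene, rose by 0.87 (SE 0.14, adjusted p = 0.0495) and IFIT2, the neighbour of IFIT1 in function and named here after its value was seen, by 0.59 (adjusted p = 0.0495). MX1, an antiviral GTPase gene, had a log2 fold change of 0.82 and missed the threshold (adjusted p = 0.0598), and ISG15, a ubiquitin-like modifier, had 0.38. Among 30 tested factors that sense nucleic acids or carry the interferon signal, 1 rose and 0 fell (0.395% and 0.368% of all genes). It was IRF7, the transcription factor that raises interferon genes themselves, with 8.15, 8.46 and 8.27 on GONH2 arrays, against 7.20, 7.41 and 7.46 on control arrays (0.93, SE 0.12, adjusted p = 0.0343). Its other probe had 0.53 with overlapping arrays and was not called (adjusted p = 0.218). IRF1, a factor of the interferon gamma response, had a log2 fold change of 0.04, with overlapping arrays. Of the 11 tested interferon genes that the study displays, chosen on these samples, 2 rose and 0 fell (0.395% and 0.368% of all genes). All 11 had a positive log2 fold change.

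To show what the promoters of the called interferon genes share, the 250 bases before each start were searched on both strands for the ISRE core (TTTC, any 2 bases and TTTC again) in RefSeq promoters of GRCh38.p14. The core was present in 3.02% of 35116 promoters, in 2.34% of those of the genes tested here and in 22 of the 42 tested interferon-stimulated genes that have an entry (52.4%). Of the genes called higher, 5 of 30 with an entry held it (16.7%), and of those called lower 1 of 29 (3.45%). Within the 5 called interferon-stimulated genes with an entry, 4 held it and DTX3L did not. The stretches around it are given with the core, or its reverse complement, in capitals. They lie on the plus strand at chr10:89392487-89392549 (IFIT1), chr1:78649751-78649788 (IFI44) and chr12:112938311-112938473 (OAS3) and on the minus strand at chr1:27672256-27672368 (IFI6). A match describes the letters and not binding.
IFIT1: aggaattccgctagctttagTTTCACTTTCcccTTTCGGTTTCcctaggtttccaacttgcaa
IFI44: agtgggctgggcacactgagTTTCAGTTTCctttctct
OAS3: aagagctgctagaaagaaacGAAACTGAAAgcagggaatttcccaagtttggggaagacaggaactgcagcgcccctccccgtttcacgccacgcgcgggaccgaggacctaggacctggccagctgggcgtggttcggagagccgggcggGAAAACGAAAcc
IFI6: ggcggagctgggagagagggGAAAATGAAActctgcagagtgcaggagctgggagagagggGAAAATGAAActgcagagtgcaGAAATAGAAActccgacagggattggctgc

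A few genes of growth-factor and MAP kinase feedback fell. Of 35 tested immediate early and MAPK feedback genes, 0 rose and 3 fell (0.368% of all genes fell), with 3 above (12.1% of all genes) and 11 below all control arrays (14.9%). The median was -0.13, and 12 had a positive log2 fold change. EGR1, a zinc finger factor raised by ERK signals, had log2 intensities of 9.99, 9.87 and 9.80 on GONH2 arrays, against 10.82, 11.01 and 10.84 on control arrays. All GONH2 arrays lay well below the lowest control, and the gene fell by 1.00 on the log2 scale (SE 0.10, adjusted p = 0.0233). TRIB1, the pseudokinase gene that steers CEBPA protein to degradation, had 7.72, 7.69 and 7.47 on GONH2 arrays, against 8.60, 8.60 and 8.82 on control arrays (-1.05, SE 0.11, adjusted p = 0.0233). DUSP1, a phosphatase that inactivates MAP kinases, had 8.22, 8.47 and 8.38 on GONH2 arrays, against 8.95, 9.06 and 9.07 on control arrays (-0.67, SE 0.10, adjusted p = 0.0410). MAFF, a small MAF factor named after its value was seen, had -0.95 and missed the threshold (adjusted p = 0.0816).

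Serum response factor binds the CArG box and CREB the element CRE, TGACGTCA, and both are classic inputs to immediate early genes. The CArG box was found in 1.16% of all promoters and 0.981% of those of tested genes, and the CRE in 1.65% and 3.10%, within the same window and on both strands. Of the 26 tested immediate early genes with an entry, 2 held a CArG box and 3 a CRE. EGR1 held 2 CArG boxes and DUSP1 1 CRE, shown in capitals from chr5:138465354-138465425 (plus strand) and chr5:172771293-172771340 (minus strand).
EGR1: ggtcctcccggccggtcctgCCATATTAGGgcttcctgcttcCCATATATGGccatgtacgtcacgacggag
DUSP1: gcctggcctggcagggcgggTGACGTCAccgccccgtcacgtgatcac

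Among feedback genes of other pathways, NKD2, a brake on Wnt signals that binds Dishevelled, fell. It had log2 intensities of 9.05, 9.00 and 9.04 on GONH2 arrays, against 10.24, 10.18 and 10.09 on control arrays (log2 fold change -1.14, SE 0.09, adjusted p = 0.0118). Of 15 tested Wnt feedback genes, 1 fell (0.368% of all genes did) and 0 rose, 7 lay below (14.9% of all genes) and 1 above all control arrays (12.1%), and the median was -0.22. ID1 and ID3 encode dominant-negative partners of basic helix-loop-helix factors and are direct targets of BMP signals. ID1 had 9.82, 9.72 and 9.75 on GONH2 arrays, against 10.62, 10.58 and 10.49 on control arrays (-0.80, SE 0.09, adjusted p = 0.0233). ID3 had 6.88, 6.87 and 6.88 on GONH2 arrays, against 7.71, 7.64 and 7.87 on control arrays (-0.86, SE 0.09, adjusted p = 0.0233). Both pairs of groups were clear of each other, and the other 16 tested genes of the ID and BMP feedback list were not called. The other ID1 probe had -0.48 and missed the call (adjusted p = 0.0994). SGK1, a kinase gene that glucocorticoids and cell stress induce, rose. It had 6.72, 6.56 and 6.85 on GONH2 arrays, against 5.28, 5.62 and 5.70 on control arrays (1.17, SE 0.14, adjusted p = 0.0294), and 2 of its 3 probes were called. With DUSP1 it was 1 of 2 called genes among 15 tested glucocorticoid-responsive genes, in opposite directions (0.764% of all genes were called).

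Among myeloid markers, a pair of regulators fell and few other genes were called. SPI1, the gene of the transcription factor PU.1, had log2 intensities of 9.50, 9.48 and 9.42 on GONH2 arrays, against 10.00, 10.15 and 10.03 on control arrays (log2 fold change -0.59, SE 0.09, adjusted p = 0.0396). Another SPI1 probe had -0.42 and missed the call (adjusted p = 0.0732). CEBPA, its partner in granulocyte and monocyte development, had 11.80, 11.76 and 11.77 on GONH2 arrays, against 12.40, 12.22 and 12.33 on control arrays (-0.54, SE 0.09, adjusted p = 0.0486). FCGR1A, the high-affinity receptor for IgG and itself raised by interferon gamma, had 10.60, 10.48 and 10.53 on GONH2 arrays, against 9.98, 9.90 and 10.02 on control arrays (0.57, SE 0.09, adjusted p = 0.0434), on a probe that its near-identical copies may share. In each of these genes the arrays of the groups did not overlap. Of 26 tested myeloid markers, these were the only ones called, 1 higher and 2 lower (0.395% and 0.368% of all genes). Above all control arrays lay 8 (12.1% of all genes) and below them 9 (14.9%). Among those not called, S100A8 and S100A9, calcium-binding proteins of neutrophils and monocytes, were detected on no GONH2 array and on 2 and 3 control arrays. S100A9 was at least 1.22-fold lower on GONH2 arrays (adjusted p = 0.0657), and S100A8 gave no bound (adjusted p = 0.0506). LGALS3 (galectin 3) had 0.80 and CSF1R, the receptor for macrophage growth factor, 0.59. Of 13 tested T-cell markers none passed limma's test (before adjustment, at p under 0.05, 1 was higher and 2 were lower), and CD3D had -0.37 with overlapping arrays.

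The remaining large rises included genes of no fixed list. SATL1, an acetyltransferase-like gene, had log2 intensities of 6.67, 6.66 and 6.57 on GONH2 arrays, against 5.51, 5.61 and 5.18 on control arrays (1.20, SE 0.13, adjusted p = 0.0233). HSPA13, an HSP70-like protein of microsomes, rose by 1.13 (SE 0.19, adjusted p = 0.0495) on 1 probe, whereas its other probe had 0.01. NECAB1, a neuronal calcium-binding protein gene, rose by 1.07 (SE 0.13, adjusted p = 0.0320) and MYBL1, a MYB-family factor, by 0.94 (SE 0.12, adjusted p = 0.0343). HAUS6, a subunit of augmin, which seeds microtubules in the spindle, was detected on no control array and rose at least 1.53-fold. HSPA4, a nucleotide exchange factor for HSP70, had 9.20, 9.11 and 9.15 on GONH2 arrays, against 8.34, 8.52 and 8.56 on control arrays (0.68, SE 0.10, adjusted p = 0.0384). Of 28 tested genes on the list of heat shock proteins and chaperonins, which leaves out HSPA13, it was the only one called (0.764% of all genes were called). The other HSPA4 probe had 0.17 with overlapping arrays (adjusted p = 0.539).

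Several of the remaining large falls were seen by 1 probe of a gene and not by its others. TDP1, which frees topoisomerase I from DNA, had log2 intensities of 10.26, 11.09 and 10.59 on GONH2 arrays, against 11.89, 11.89 and 11.73 on control arrays (-1.19, SE 0.20, adjusted p = 0.0495), while its other probes had 0.16 and 0.05. ZMAT3, a p53-induced RNA-binding protein gene, had 12.37, 12.84 and 12.52 on GONH2 arrays, against 13.54, 13.53 and 13.40 on control arrays (-0.91, SE 0.13, adjusted p = 0.0388), while its others had -0.20 and -0.16. In both, the GONH2 arrays scattered more than the control arrays on the called probe, and the groups stayed apart. CEP19, a centrosomal protein gene, and ERAP2, a peptide trimming enzyme of antigen presentation, fell by 0.90 (SE 0.12) and 0.76 (SE 0.10) on the called probe, with -0.08 and -0.06 on the other probes of CEP19 and -0.14 on that of ERAP2. Of 44 genes with a probe called lower, 18 had another tested probe, and no other probe of theirs was called, 14 having every other probe of the same sign. Of 71 genes with a probe called higher, 44 had another tested probe. In 5 of them another probe was called in the same direction, in 23 every other probe had the same sign without a call, and in 16 some other probe had the opposite sign.

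SEMA3E, a guidance factor that signals through plexin D1, had 9.86, 10.12 and 10.15 on GONH2 arrays, against 11.01, 11.07 and 10.94 on control arrays (-0.96, SE 0.11, adjusted p = 0.0257). MVB12B, a subunit of the ESCRT-I sorting complex, fell by 0.93 (SE 0.10, adjusted p = 0.0257) and MOAP1, a BAX-binding promoter of apoptosis, by 0.89 (SE 0.12, adjusted p = 0.0343). NPTX1, a secreted pentraxin of neurons, fell by 0.94 (SE 0.13) and LRRFIP1, a nucleic acid sensor and repressor, by 0.85 (SE 0.12). EIF3CL, a copy of the initiation factor gene EIF3C that its probe may not separate, fell by 0.99 (SE 0.11). MYL12A, a regulatory light chain of nonmuscle myosin, fell by 0.64 (SE 0.09). It was the only gene called among 43 tested actin and adhesion genes (0.764% of all genes were called). In all of these the GONH2 arrays lay below every control array. Of the noncoding RNAs, BCYRN1, a cytoplasmic RNA of neurons and tumours, had 10.44, 10.86 and 10.46 on GONH2 arrays, against 11.67, 11.64 and 11.34 on control arrays (-0.97, SE 0.15, adjusted p = 0.0442). SNORA28, which guides pseudouridylation of ribosomal RNA, had 6.76, 6.50 and 6.74 on GONH2 arrays, against 7.48, 7.53 and 7.52 on control arrays (-0.84, SE 0.10, adjusted p = 0.0313).

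Genes of energy supply, translation, stress and division were mostly not called. Of 71 tested genes of the respiratory chain and ATP synthase, 0 passed limma's test. Before adjustment, at p under 0.05, 4 were higher (8.1% of all genes were) and 7 lower (10.1%), and log2 fold changes lay between -0.29 and 0.54, with a median of -0.07 and 25 of 71 positive (5197 of 11130 over all genes). Of 69 cytosolic ribosomal proteins, 0 were called, and 4 were higher and 4 lower before adjustment, around a median of 0.01 with 37 positive. Above and below all control arrays lay 9 and 12 genes of the chain and 7 and 7 of the ribosome. The same count of 0 was found for the unfolded protein response (3 higher and 1 lower before adjustment, of 28), NRF2 antioxidant genes (0 and 0, of 17), metallothioneins and zinc transporters (0 and 1, of 11) and cholesterol synthesis (4 and 1, of 29). It was found as well for DNA replication (3 and 1, of 38), mitosis (3 and 0, of 33), BCL2 family and caspases (2 and 4, of 30), lysosomes (2 and 3, of 35) and histones (1 and 3, of 19). These counts take 1 probe per gene. On another probe the caspase gene CASP6 (0.79, adjusted p = 0.0317) and the BCL2-family gene BNIP3L (0.98, adjusted p = 0.0343) were called higher. Of 34 genes of glycolysis and hypoxia, 0 were called, 7 were higher and 1 lower before adjustment, and HIF1A, the oxygen-sensing factor, had a log2 fold change of 0.59 (adjusted p = 0.0782). A missed threshold does not show that these genes kept their level. The plot of the lists sets their members side by side.

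**Figure D4:**
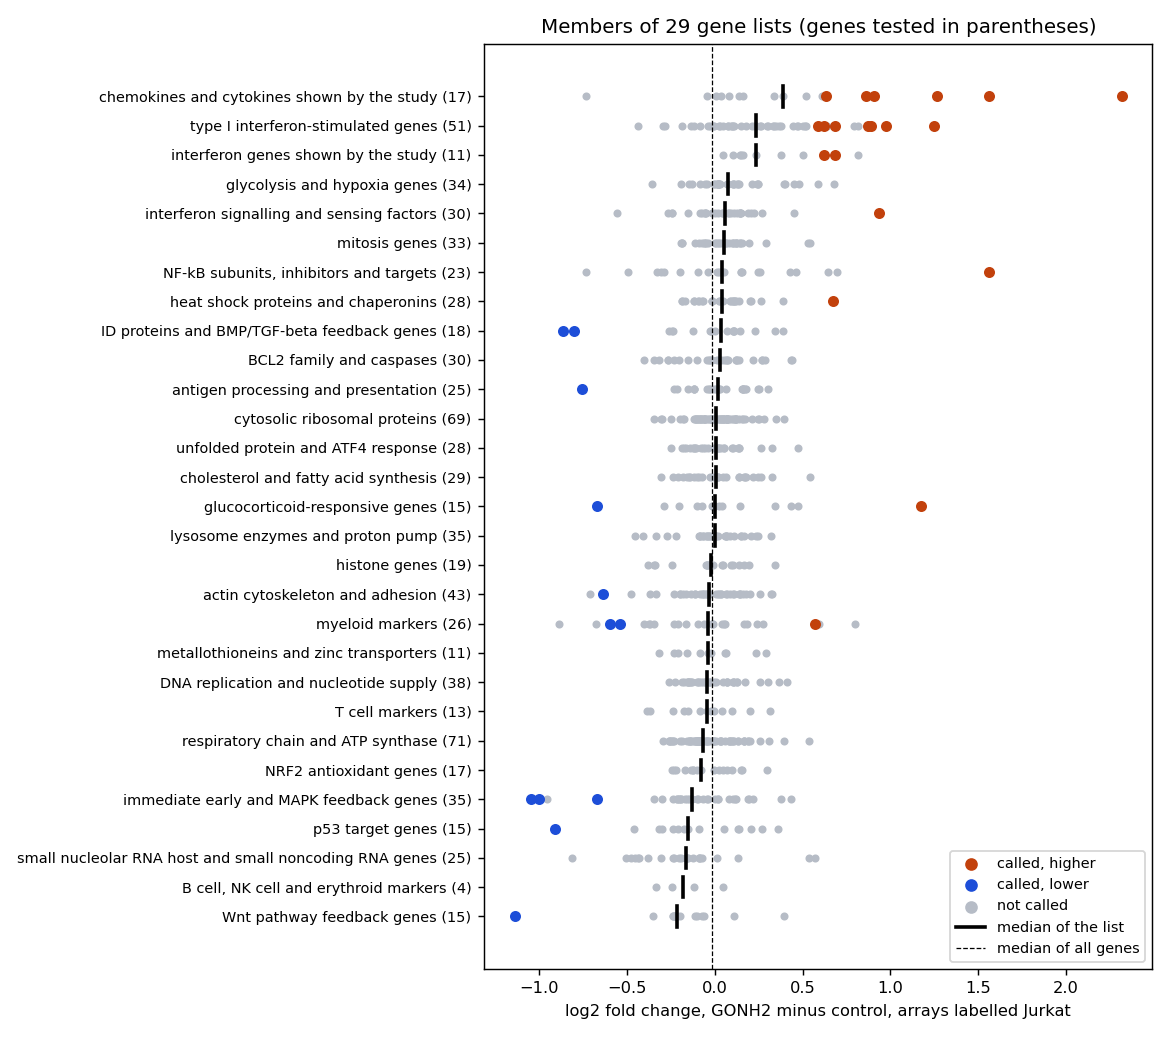
Log2 fold change (GONH2 minus control, arrays labelled Jurkat) of each tested member of 29 gene lists, ordered by the median of the list (black bar, dashed line for all genes at -0.02). Orange and blue points are members called higher and lower, and grey points were not called. The chemokine and cytokine list and the interferon lists lie farthest to the right, with medians of 0.39, 0.24 and 0.23.

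GONH2 carries amino-terminated chains that GO lacks, and the materials were compared directly in Jurkat at the same dose and time, where chains, sheet thickness and suspension cannot be told apart. That comparison shares its 3 GONH2 arrays with the one against control. Of 11130 genes, 1124 were higher (10.1%) and 1744 lower (15.7%) after GONH2 than after GO. Of the 42 named genes that GONH2 changed against control, 24 also differed from GO. Over all 19455 transcripts, 2286 were higher and 2403 lower, a split that became 2677 and 608 under median scaling and 2651 and 1977 under cyclic loess. Among the interferon-stimulated genes 16 of 51 were higher after GONH2 than after GO and 2 lower, with a median of 0.42 against -0.12 over all genes. IFI6 averaged 10.43 ± 0.15 on GONH2 arrays and 7.74 ± 0.21 on GO arrays (SD, n = 3 each), a difference of 2.69 (SE 0.14), larger than its rise over control. IFI44 and IFIT1, detected on all GONH2 arrays, were detected on 0 and 1 of 3 GO arrays, and IFI44 was at least 2.57-fold higher after GONH2. OAS2 differed by 1.61 and DTX3L by 1.54. IRF7 did not follow them, at 8.29 ± 0.16 on GONH2 arrays and 8.29 ± 0.05 on GO arrays, a difference of 0.00 (95% interval -0.27 to 0.28).

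The chemokines split between the materials. CCL4L1 averaged 7.18 ± 0.16 on GONH2 arrays and 4.95 ± 0.19 on GO arrays, where it was not detected, so that it was at least 3.60-fold higher after GONH2. CCL3 averaged 9.10 ± 0.10 on GONH2 arrays and 8.18 ± 0.08 on GO arrays. Both differences were called. CCL5 averaged 12.01 ± 0.06 on GONH2 arrays and 12.29 ± 0.11 on GO arrays, a difference of -0.28 that was not called (95% interval -0.53 to -0.02). IL1B scattered widely on GO arrays (7.64 ± 0.08 on GONH2 arrays and 6.99 ± 0.58 on GO arrays), and its difference of 0.65 was not called either (0.06 to 1.24). TRIB1, NKD2 and SPI1 were lower after GONH2 than after GO by 1.70, 1.52 and 1.23 on the log2 scale, whereas DUSP1 stood at 8.36 ± 0.12 on GONH2 arrays and 8.15 ± 0.11 on GO arrays, a difference of 0.21 that was not called (95% interval -0.06 to 0.48). ID1, lower than control after GONH2, was higher than after GO by 3.62 on the log2 scale, and ID3, detected on no GO array, was at least 2.92-fold higher. Of the respiratory chain genes, 41 of 71 were higher and 5 lower after GONH2 than after GO. Of the ribosomal proteins 42 of 69 were higher and 0 lower. Over all genes 10.1% were higher and 15.7% lower.

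The response to GONH2 was also compared between arrays labelled Jurkat and arrays labelled THP1 by an interaction term over 12 arrays. Since the labels of the treated THP1 arrays are in doubt, each gene is set against both THP1 groups as labelled. The difference from the response on THP1 arrays labelled GONH2 was called in 20.8% of genes, and that from the response on arrays labelled GO in 6.22%. By transcript, 1762 differences from labelled GONH2 were positive and 1853 negative (1938 and 234 under median scaling), and 511 from labelled GO were positive and 561 negative (478 and 112). Of the 42 named genes, 24 differed from the THP1 arrays labelled GONH2, 12 from those labelled GO and 8 from both. CCL4L1, IFI6, IL1B, OAS2, EGR1, TRIB1, NKD2 and SNORA28 were those 8. The 42 were chosen on the Jurkat difference that also enters these terms, so their counts cannot be weighed against the shares over all genes. CCL4L1 rose by 2.32 in Jurkat and was detected on no THP1 array of any group. IFI6 rose by 0.68 in Jurkat, against -2.45 and -1.22 on THP1 arrays labelled GONH2 and GO. EGR1 fell by 1.00 in Jurkat, against log2 fold changes of 0.67 and 1.13 on THP1 arrays labelled GONH2 and GO, and TRIB1 fell by 1.05, against 1.22 and 0.76. Neither difference was called for IRF7, which had 0.93 in Jurkat, 0.92 on THP1 arrays labelled GONH2 and 1.00 on those labelled GO. CCL3L3 did not differ by the call either, with 0.86 in Jurkat, 0.08 on THP1 arrays labelled GONH2 and 1.37 on those labelled GO, nor did CCL3, which was detected on no THP1 control array.

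**Figure D5:**
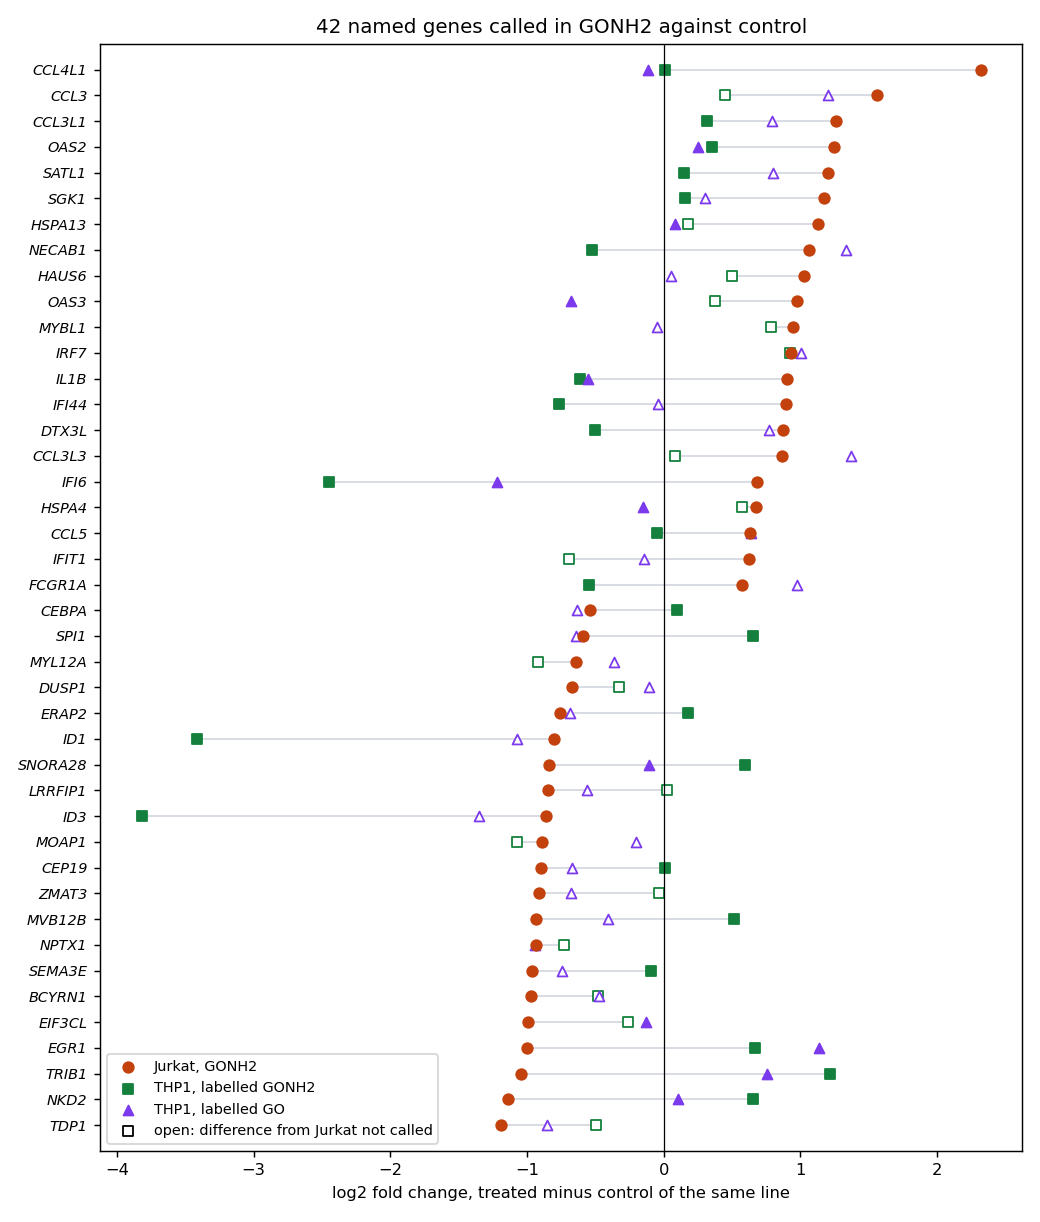
Log2 fold change against the control of the same line for the 42 named genes, ordered by the value in Jurkat (orange circles, GONH2). Green squares are THP1 arrays labelled GONH2 and purple triangles those labelled GO, filled where the difference from Jurkat was called. CCL4L1, IFI6, EGR1, TRIB1 and NKD2 are filled for both, and IRF7 lies within 0.1 in all 3.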

How the data were processed

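RNA of 6 groups of 3 samples was hybridized to Illumina HumanHT-12 v4 arrays (18 in all). The intensities, as deposited by the authors, are linear bead signals read out by GenomeStudio V2011.1 and not yet normalized between arrays. The detection p-value deposited beside each signal compares it with negative control probes. A second table deposited by the authors holds normalized intensities and served as an alternative.

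Background correction used the detection p-values (neqc of limma 3.58.1 in R 4.3.3, offset 16), followed by quantile normalization of the 18 arrays and log2 transformation. The test took the 19455 of 47217 probes whose detection p was below 0.01 on 3 or more arrays. Each comparison used limma's moderated test on its own arrays, with calls at p under 0.001 and, after Benjamini-Hochberg adjustment across the tested probes, under 0.05. SE is that of the fit. Of all probes, 30106 carried 1 symbol, 8 several and 17103 none, and each of 11130 genes was represented by its brightest probe. For a named transcript not detected in 1 of the Jurkat groups compared, a lower bound of the fold is given, with the lowest detected signal of each array in its place. Arrays give no counts, so their number, 3 per group, limits the precision. The p-values set a mean difference against the spread among the arrays of a group, which limma moderates over the tested probes.

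The members and the 29 gene lists were chosen with earlier results of these data known. Named genes are the 15 largest called rises and falls, up to 4 called members of each list, 2 members of lists with none, members of both study lists and the markers, and 8 genes fixed by name (SGK1, NKD2, TRIB1, EGR1, ID1, ID3, IFI6 and IFIT1). Between lines the 5 largest differences each way were added. Alternatives covered background, offset, scaling, filter, fit, replicate block, variance model, thresholds, probe choice and leaving out each array. The calling was tested on simulated data of the same spread.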

Additional observations from a re-analysis of the deposited data

Results flagged for a closer look

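Differences between arrays labelled Jurkat and THP1 in the response to GONH2 are listed for named genes and for the pair of unnamed probes, since the interaction test passed. The labels of the treated THP1 arrays are in doubt, so both sets are given as Jurkat minus THP1 on the log2 scale.

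Against THP1 arrays labelled GONH2, the log2 fold change was higher in Jurkat for the interferon genes IFI27 (4.02), IFI6 (3.14), IFI44 (1.66), DTX3L (1.37) and OAS2 (0.89). These differences include any fall on the THP1 arrays, and IFI27 itself was not called against control in Jurkat. The chemokine and cytokine genes that differed were CCL4L1 (2.31), IL1B (1.52), CCL3L1 (0.95) and CCL5 (0.68). The differentiation inhibitors ID3 (2.96) and ID1 (2.61), which fell in Jurkat, had lower log2 fold changes on the THP1 arrays. Others were ORM1 (3.26), CD1D (3.01), RBIS (3.00), the unnamed probes ILMN_3235832 (2.53) and ILMN_2100209 (2.51), NECAB1 (1.59), FCGR1A (1.12), SATL1 (1.05) and SGK1 (1.02). The negative differences were TRIB1 (-2.26), MYO1G (-2.24), ZNF296 (-2.01), PRKD2 (-2.00), SORBS3 (-1.93), NKD2 (-1.80), EGR1 (-1.67), MVB12B (-1.45), SNORA28 (-1.43), SPI1 (-1.25), ERAP2 (-0.94), CEP19 (-0.91), SEMA3E (-0.87) and CEBPA (-0.64).

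Against THP1 arrays labelled GO, the positive differences were ORM1 (3.07), ILMN_3235832 (2.62), CCL4L1 (2.43), ILMN_2100209 (2.31), IFI27 (2.21), IFI6 (1.90), CES1 (1.67), OAS3 (1.66), IL1B (1.46), HSPA13 (1.05), OAS2 (1.00) and HSPA4 (0.83). The negative ones were the steroid and aldehyde reductase genes AKR1C2 (-3.17), AKR1C4 (-2.73) and AKR1C3 (-2.43), then DLL1 (-2.82), NRG4 (-2.46), EGR1 (-2.13), TRIB1 (-1.81), NKD2 (-1.24), EIF3CL (-0.86) and SNORA28 (-0.74). The AKR1C genes are near-identical copies, detected on no Jurkat array.

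Some of these differences rest on groups where a probe was not detected and are not sizes of a response. ID3, IFI27, IFI44 and CD1D were detected on no THP1 array labelled GONH2, CCL4L1 and SGK1 on no THP1 array, IL1B on 1 THP1 control array only, ILMN_3235832 on 1 THP1 array, ILMN_2100209 on none and NRG4 on 1 Jurkat GONH2 array and no Jurkat control array.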

How the results depend on the processing

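The number of transcripts that GONH2 changed in Jurkat moved with the processing, while all 158 kept their sign wherever they were tested. That sign was fixed in advance where only the test changed and, as the groups did not overlap, where 1 array was left out. Against 158 (102 higher, 56 lower), the count was 46 (25 and 21) under median scaling, 928 (550 and 378) with the authors' normalized values, 923 (546 and 377) without background correction, 571 (356 and 215) with an offset of 50, 848 (505 and 343) with limma-trend and 288 (184 and 104) at p alone. It was 24 (14 and 10) without a filter, 452 (270 and 182) and 317 (202 and 115) for probes detected on all or on 3 of the arrays compared, 259 (139 and 120) in a fit of 18 arrays and 77 (39 and 38) for the mean of a gene's probes. Without 1 array it was 2 to 4 (2 to 4 higher and 0 lower), with 131 to 213 at p under 0.001. With the replicate number as a block, 2 were called (2 and 0). Whether the numbers pair the samples is not settled. Deviations of same-numbered arrays correlated at only 0.0667, 0.032 and 0.0605, but each GONH2 array correlated best with its own number. No named gene passed under the block, and all 42 kept their sign in every setting, with the same limit as for the 158. The median of the interferon-stimulated genes ran from 0.121 to 0.260.

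GONH2 differed from GO in 4689 transcripts (2286 higher, 2403 lower), in 9033 at an adjusted p alone, in 3008 for the mean of a gene's probes, in 3807 under the block and in 3290 to 3931 without 1 array. Median scaling gave 2677 and 608, cyclic loess 2651 and 1977. The response in Jurkat differed from that of THP1 arrays labelled GONH2 in 3615 (1762 and 1853), in 2172 (1938 and 234) under median scaling and in 7040 at an adjusted p alone, and from that of arrays labelled GO in 1072 (511 and 561), in 590 (478 and 112) under median scaling, 1760 with the authors' values, 1754 without background correction, 1652 with limma-trend and 2166 at an adjusted p alone. Median scaling moved the median of all transcripts by over 0.1, to 0.105, 0.174 and 0.207 in these comparisons. The causes were not tested.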

Other observations

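Many small structured RNAs had lower signals on GONH2 arrays than on control arrays, with few calls. These genes were named after their values were seen, and log2 fold changes are GONH2 minus control on arrays labelled Jurkat. Of 114 tested small nucleolar RNAs, which guide the modification of ribosomal and spliceosomal RNA, 3 fell and 0 rose (0.368% and 0.395% of all genes). Below all control arrays lay 23 (14.9% of all genes) and above them 3 (12.1%), and the median was -0.12. SNORA28, described above, lies within the coordinates of EIF5, a probe of which was also called lower. Whether the probes of these classes read the small RNA or a longer transcript was not tested. SNORA57 had log2 intensities of 5.66, 5.50 and 5.52 on GONH2 arrays, against 6.27, 6.10 and 6.15 on control arrays, and fell by 0.62 (adjusted p = 0.0438), while SNORD14A fell by 0.54 (adjusted p = 0.0438). Of 12 small nuclear RNAs, 8 lay below all control arrays and 0 above, and none passed the call. RNU1-1, the core of the U1 splicing particle, had 8.52, 8.60 and 8.45 on GONH2 arrays, against 9.02, 9.19 and 8.84 on control arrays (-0.49, adjusted p = 0.0886). RN7SK, which holds back the elongation kinase P-TEFb, had -0.46 (adjusted p = 0.0693) and RNU6-1, the catalytic U6 RNA, -0.38 (adjusted p = 0.108). Of 4 Y RNAs, partners of the protein Ro60, 3 lay below all control arrays. They were RNY1 (-0.88, adjusted p = 0.0669), RNY4 (-0.74, adjusted p = 0.0816) and RNY5 (-0.65, adjusted p = 0.0672). None of them was called, and RNY3 had -0.03. On GONH2 arrays RNY1 had 4.97, 4.91 and 5.23, RNY4 4.67, 5.00 and 5.31 and RNY5 4.88, 5.30 and 5.17. Such values are near the level below which probes were not detected, so these log2 fold changes are not sizes of a fall. Over all genes 14.9% lay below all control arrays. Of 25 tested hosts and small noncoding RNAs of a list, which shares members with the classes just counted, 15 did, and 2 lay above.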
